A study of Mus musculus with 6 samples.

Results

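Toll-like receptors and the proteins that help them to sense ligands were examined in microglia of the subventricular zone (SVZ), the stem cell niche along the lateral ventricle, before and after a cortical stroke. The 10 genes were chosen by family from the 34203 genes of the count matrix, with earlier results of these data known. They are the receptors Tlr2, Tlr4, Tlr3, Tlr7, Tlr9 and Tlr13, the co-receptors Cd14, Ly86 and Cd180, and the adaptor Myd88. All mice were Nestin-CreERT2:R26-yfp animals of both sexes on a C57BL/6N background. All, the controls included, received tamoxifen at 8 to 12 weeks of age and were older when sampled. A recombinase under the Nestin promoter thereby labelled neural stem and progenitor cells (NSPCs) with a yellow fluorescent protein. The 3 groups were uninjured mice, mice 1 day after photothrombotic ischemia (PT D1) and mice 7 days after it (PT D7), where PT means illumination of the cortex after injection of the dye Rose Bengal. The SVZ on the side of the lesion was dissected, CD11b+ CD45low microglia and fluorescent NSPCs were sorted into single wells, and mRNA was counted with unique molecular identifiers (UMIs) by mCEL-Seq2, which reads the 3′ end of transcripts. Each group has 2 libraries, and the 6 libraries together hold 416 microglia and 222 NSPCs by the authors' annotation. How many mice a library holds is not stated in the sources used here. Hence p-values measure only the spread between libraries, which may be technical. The plate of each library is not given either, so effects of plate and condition cannot be told apart.

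Toll-like receptors recognise conserved microbial molecules and material released by damaged cells. Tlr2 and Tlr4 sit on the cell surface, whereas Tlr3, Tlr7, Tlr9 and Tlr13 sense nucleic acids in endosomes. Most of them signal through the adaptor Myd88 towards NF-kB and inflammatory genes, and microglia are the main cells of the brain that carry them.

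At PT D1 microglia held more Tlr2, Tlr7 and Cd14 mRNA and less Tlr3 mRNA than in uninjured mice. At PT D7 no gene of the family passed the test against uninjured, and against PT D1 the receptors Tlr2, Tlr7 and Tlr13 were lower and the co-receptor pair Ly86 and Cd180 was higher. UMIs were summed over the microglia of each library and tested by quasi-likelihood in edgeR. Adjustment was by Benjamini-Hochberg over the 4846 genes that passed its filter on low counts, and calls required an adjusted p below 0.05. Of the 10 genes 9 passed this filter, and Tlr9 did not. At PT D1 3 of these 9 were called higher and 1 lower, where 2.72% of all genes tested were called higher and 2.97% lower. The median log2 fold change at PT D1 was 0.53 for the 9 genes and 0.04 for all genes tested. At PT D7 against uninjured 0 of 9 were called, where 0.103% of all genes were called higher and 0.0619% lower. Of these 9, 2 had an unadjusted p under 0.05 in edgeR, where 4.09% of all genes tested were higher and 3.24% lower at that level. DESeq2 also called 0 of the 9, beside 6 higher and 3 lower of 4846 genes. Between PT D7 and PT D1 2 were called higher and 3 lower, where 1.69% of all genes were called higher and 2.1% lower. The median log2 fold change over the 9 genes was 0.30 at PT D7 against uninjured and -0.08 at PT D7 against PT D1, beside -0.01 over all genes in both. When the library number entered the fit as a replicate block, 8 members were called at PT D1, 0 at PT D7 against uninjured and 7 between the PT conditions. That fit also called more of all genes, with 340 higher and 299 lower of 4846 at PT D1, 30 and 13 at PT D7 against uninjured, and 191 and 271 between the PT conditions. At PT D1 the member calls were lost without either uninjured library, and fewer of all genes were called as well. Between the PT conditions fewer members were called without any single library other than PT D1 library 1. Fewer of all genes were called there too, except without PT D1 library 2. These fits leave 1 library in a condition. Below, the libraries of a condition are at times said to lie above or below all others. The share of all genes for which this holds was not counted, so such an order is only a description.

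**Figure D1:**
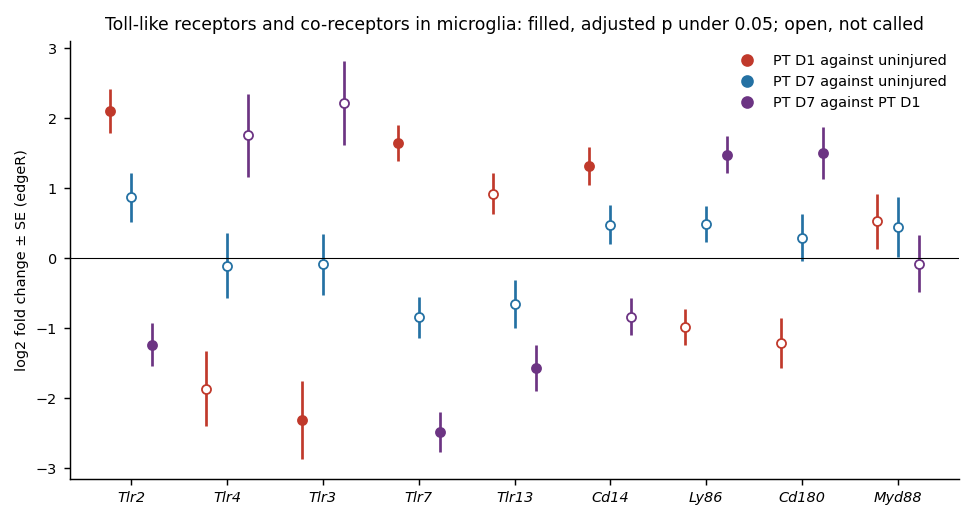
Log2 fold change (y axis) of the 9 genes tested in microglia (x axis) for the 3 comparisons named in the legend, with standard errors from edgeR over 2 libraries per condition. Filled points passed an adjusted p of 0.05 and open points did not. Tlr2, Tlr7 and Cd14 were called higher and Tlr3 lower at PT D1, and every point of PT D7 against uninjured is open.

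Microglia held 294984 to 468186 UMIs per library, with a median of 4155 to 5522.5 UMIs per cell. The 8 microglial marker genes were detected in the microglia of every library, with a summed level of 14885 to 14983 CPM (UMIs per 1000000 UMIs of the microglia of a library) in uninjured, 5828 to 8090 in PT D1 and 10839 to 11218 in PT D7 libraries. The 6 border macrophage markers summed to 111 to 132 CPM in uninjured, 17.9 to 22.2 in PT D1 and 20.2 to 81.4 in PT D7 microglia. The 5 monocyte markers reached 11 to 23.5, 2.78 to 75.9 and 6.75 to 27.1 CPM, and the highest of these values comes from PT D1 library 2, where Plac8 alone gave 30 UMIs. The 5 neutrophil markers stayed at or below 6.70 CPM, and Ly6g was at 0 in every library. The choroid plexus markers, mostly Ttr, reached 4673 to 10538 CPM in uninjured and 460 to 592 CPM in PT D1 and 196 to 610 CPM in PT D7 microglia. Those of NSPCs summed to 340 and 842 CPM in uninjured libraries 1 and 2, 220 and 498 CPM at PT D1 and 234 and 672 CPM at PT D7. Library 2 was higher each time, and it also held more NSPCs (59 against 16, 52 against 19 and 61 against 15). The part of the choroid plexus markers in the results was not tested. Cells with UMIs of 3 or more of the 10 NSPC markers are called rich in them here. Leaving these out kept 63 of 71 and 37 of 84 microglia of uninjured libraries 1 and 2. At PT D1 it kept 67 of 71 and 58 of 76. Without cells rich in NSPC markers, 3 members were called higher and 4 lower at PT D1, beside 117 and 160 of 4001 genes. Without the cells that held UMIs of 2 or more border macrophage, monocyte or neutrophil markers, 3 members were called higher and 2 lower, beside 114 and 125 of 4711 genes. The cell names of different libraries did not coincide, although 164 of 180 well numbers occur in more than 1 library.

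The sequence before the RefSeq start site is shown for the 5 members that were called in a comparison and have an entry. It is shown because 1 rose and 1 fell at PT D1 with the same kind of motif in it. RefSeq promoter windows, matched by symbol, were used for 7 of the 10 genes, and each window of 250 bases was placed on GRCm39 by an exact match. Only the stretch that lies in no GENCODE exon is printed, 5′ to 3′ on the strand of the gene. For Tlr3 this stretch lies inside the GENCODE bounds of the gene, chr8:45848702-45864117, and not upstream of them. The stretches are chr3:83749075-83749165 on the minus strand for Tlr2, chr8:45863430-45863489 on the minus strand for Tlr3, chrX:105186631-105186809 on the plus strand for Tlr13, chr13:37529071-37529183 on the plus strand for Ly86 and chr13:102829805-102830040 on the plus strand for Cd180. Capitals mark matches on either strand to the NF-kB pattern GGGNNNNNCC, the PU.1 core GAGGAA and the AP-1 pattern TGANTCA.
Tlr2: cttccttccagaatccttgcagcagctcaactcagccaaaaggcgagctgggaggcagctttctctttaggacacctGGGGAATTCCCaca
Tlr3: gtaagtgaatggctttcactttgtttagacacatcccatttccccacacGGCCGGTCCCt
Tlr13: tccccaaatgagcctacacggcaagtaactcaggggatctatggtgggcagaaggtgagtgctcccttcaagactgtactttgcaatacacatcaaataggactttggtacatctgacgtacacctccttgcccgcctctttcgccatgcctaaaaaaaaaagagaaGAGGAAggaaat
Ly86: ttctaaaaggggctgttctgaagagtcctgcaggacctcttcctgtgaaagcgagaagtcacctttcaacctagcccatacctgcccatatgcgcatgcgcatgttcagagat
Cd180: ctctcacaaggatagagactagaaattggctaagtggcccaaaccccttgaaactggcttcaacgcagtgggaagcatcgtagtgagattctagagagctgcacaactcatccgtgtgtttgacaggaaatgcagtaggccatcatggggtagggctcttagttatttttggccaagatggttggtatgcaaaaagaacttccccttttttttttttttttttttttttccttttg

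In the full windows the NF-kB pattern occurred in 2 of the 7 genes, Tlr2, with 2 overlapping matches, and Tlr3, with 1 match inside and 1 outside an exon. It is a loose pattern, found in 45.8% of the 32851 promoter windows of the same length. The PU.1 core was found in Tlr9 and Tlr13 and in 23.3% of all windows, and the AP-1 pattern in Tlr9 and in 6.75% of all windows. Ly86, Cd180 and Myd88 held none of these letters in their windows. The Myd88 window, like that of Tlr3, lies inside the GENCODE bounds of its gene. A match is a description of the letters and not of binding.

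Tlr2 is the surface receptor for bacterial lipoproteins. Its gene lies on the minus strand at chr3:83743576-83749074. In microglia Tlr2 was found at 41.2 and 42.7 CPM in the uninjured libraries, at 145 and 188 CPM in the PT D1 libraries and at 71.2 and 60.7 CPM in the PT D7 libraries. Both PT D1 libraries lay above every other library, and both PT D7 libraries lay above both uninjured libraries. Against uninjured Tlr2 rose by 2.10 ± 0.31 (SE) on the log2 scale at PT D1 (adjusted p = 0.00315, edgeR, n = 2 libraries per group) and its log2 fold change was -1.23 ± 0.31 from PT D1 to PT D7 (adjusted p = 0.0492, edgeR). At PT D7 against uninjured it was 0.87 ± 0.35 with an adjusted p of 0.621 in edgeR. The call at PT D1 was lost without uninjured library 1 or library 2, with fold changes of 2.09 and 2.07, and with every cell thinned to 1000 UMIs. The later call was made under only 7 of 20 alternatives. It was lost without any single library other than PT D1 library 1. It was also lost with DESeq2, DESeq2 size factors, thinned cells and the fit of only the conditions compared. The same held with cells of at least 2000 UMIs, of at most 10% mitochondrial UMIs or with few other myeloid markers, and without cluster 2.

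Cd14, the co-receptor that hands lipopolysaccharide and other ligands to Tlr4 and Tlr2, also rose at PT D1. Its microglial level was 220 and 226 CPM in uninjured, 456 and 563 CPM in PT D1 and 305 and 226 CPM in PT D7 libraries. Both PT D1 libraries were above all others, while the PT D7 libraries overlapped with the uninjured ones. With the TMM scaling of the test the PT D7 values, 376 and 248 CPM, lay above the uninjured ones, 227 and 220 CPM. Cd14 had a log2 fold change of 1.31 ± 0.27 at PT D1 (adjusted p = 0.0181, edgeR) and -0.83 ± 0.27 from PT D1 to PT D7 (adjusted p = 0.120, edgeR). Under the replicate block the later difference passed, with an adjusted p of 0.0293 in edgeR, and it was called under 3 of 20 alternatives in all. The PT D1 call was lost without uninjured library 1 (edgeR adjusted p = 0.209) or library 2 (0.212), at fold changes of 1.31 and 1.27.

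Tlr4, the lipopolysaccharide receptor, had its lowest values at PT D1. Its gene lies on the plus strand at chr4:66745783-66849936, where it overlaps 3 long noncoding genes. Only 18 and 15 UMIs in uninjured, 3 and 5 in PT D1 and 8 and 11 in PT D7 microglia came from it, or 49.4 and 32.0, 8.34 and 11.2, and 27.1 and 37.1 CPM. Both PT D1 libraries were below all others. The log2 fold change of -1.86 ± 0.54 at PT D1 did not pass (adjusted p = 0.0662, edgeR). It was called under 3 of 17 alternatives, among them the replicate block (adjusted p = 0.0280, edgeR). From PT D1 to PT D7 it was 1.76 ± 0.59 (adjusted p = 0.124, edgeR). Ly96, the partner of Tlr4 in lipopolysaccharide binding, had 40 UMIs in all microglia and Lbp, the serum protein that loads Cd14, had 3, and neither passed the filter.

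Cd180 is a Toll-like receptor homologue without a signalling domain, and Ly86, also known as MD-1, is the protein that binds it at the cell surface. The genes lie on the same chromosome, Ly86 at chr13:37529184-37603012 and Cd180 at chr13:102830041-102876137, both on the plus strand. Ly86 stood at 1474 and 1262 CPM in uninjured, 720 and 552 CPM in PT D1 and 1661 and 1657 CPM in PT D7 microglia. Cd180 stood at 135 and 186 CPM, 89.0 and 40.2 CPM, and 170 and 169 CPM. For both genes the PT D1 libraries were below all others, and for Ly86 both PT D7 libraries were also above both uninjured ones. For Cd180 this held only with TMM scaling, at 209 and 185 CPM against 139 and 181 CPM.

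Against uninjured, neither gene of the pair was called at PT D1. Ly86 had a log2 fold change of -0.99 ± 0.26 (adjusted p = 0.05001, edgeR, just above the threshold) and Cd180 one of -1.21 ± 0.36 (adjusted p = 0.0761, edgeR). Ly86 was called under 12 of the 20 alternatives and Cd180 under 5 of 20. Both passed with the replicate block, with edgeR adjusted p-values of 0.00230 for Ly86 and 0.0111 for Cd180. From PT D1 to PT D7 both rose, Ly86 by 1.48 ± 0.26 (adjusted p = 0.0104, edgeR) and Cd180 by 1.5 ± 0.37 (adjusted p = 0.0445, edgeR) on the log2 scale. The Ly86 call was lost only without PT D7 library 1 (edgeR adjusted p = 0.0732). The Cd180 call was lost without any single library other than PT D1 library 1. It was also lost with DESeq2, without TMM scaling and in the fit of only the conditions compared. With every cell thinned to 1000 UMIs, the log2 fold change of Cd180 was only 0.50 (adjusted p = 0.697, edgeR). The summed level of the 8 microglial markers was also lowest in the PT D1 libraries, and its part in these values was not tested.

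Tlr7, which senses single-stranded RNA, was higher at PT D1 than in both other conditions. Its gene lies at chrX:166086758-166113605 on the minus strand, with no annotated gene over it. It gave 50 and 64 UMIs in uninjured, 157 and 158 in PT D1 and 16 and 23 in PT D7 microglia, which are 137 and 137, 436 and 353, and 54.2 and 77.6 CPM. The 3 conditions did not overlap, with PT D1 highest and PT D7 lowest. Tlr7 had a log2 fold change of 1.65 ± 0.26 at PT D1 (adjusted p = 0.00434, edgeR) and -2.49 ± 0.29 from PT D1 to PT D7 (adjusted p = 0.00113, edgeR). Against uninjured, PT D7 differed by -0.84 ± 0.29, with an edgeR p of 0.0145 before and 0.553 after adjustment. The difference between PT D7 and PT D1 was called under all 20 alternatives, the only one of the 27 member comparisons of which this holds. The call at PT D1 was lost without uninjured library 1 (edgeR adjusted p = 0.104) or library 2 (0.117).

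Tlr13, a mouse receptor for bacterial ribosomal RNA that also lies on the X chromosome (chrX:105186810-105204533, plus strand), was at 68.6 and 91.8 CPM in uninjured, 158 and 123 CPM in PT D1 and 44.1 and 43.9 CPM in PT D7 microglia. Here too PT D1 was highest and PT D7 lowest without overlap. The log2 fold change of 0.92 ± 0.30 at PT D1 did not pass (adjusted p = 0.0978, edgeR). It was called under 2 of 19 alternatives, among them the replicate block (adjusted p = 0.0370, edgeR). From PT D1 to PT D7 the level fell by 1.57 ± 0.33 on the log2 scale (adjusted p = 0.0237, edgeR). That call was lost without either uninjured library and without either PT D7 library. It was also lost with DESeq2, in the fit of only the conditions compared and without cells rich in NSPC markers.

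Tlr3, the receptor for double-stranded RNA, which signals through Ticam1 and not Myd88, was the only member called lower at PT D1. It lies at chr8:45848702-45864117 on the minus strand and overlaps a long noncoding gene on the other strand. It gave 14 and 21 UMIs in uninjured, 4 and 2 in PT D1 and 9 and 11 in PT D7 microglia, or 38.4 and 44.9, 11.1 and 4.47, and 30.5 and 37.1 CPM. The PT D1 libraries were below all others, and the PT D7 values lay below the uninjured ones, but with TMM scaling, at 37.6 and 40.8 CPM against 39.6 and 43.6 CPM, they overlapped. The log2 fold change at PT D1 was -2.31 ± 0.56 (adjusted p = 0.0320, edgeR). That call was lost without uninjured library 1 (-2.39) or 2 (-2.24), and when PT D1 library 2 was removed (-1.77). It was also lost with only cells of at least 2000 UMIs or of at most 10% mitochondrial UMIs, and DESeq2 did not call Tlr3. From PT D1 to PT D7 the log2 fold change was 2.22 ± 0.60 (adjusted p = 0.0656, edgeR). It was called under 4 of 17 alternatives, among them the replicate block (2.22, adjusted p = 0.0262, edgeR).

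Tlr9, the receptor for unmethylated CpG DNA, was nearly undetected. It gave 4 UMIs in 3 cells of uninjured library 2 and 0 in the other 5 libraries, where 0 allows up to 6.70 to 10.2 CPM. Its gene lies at chr9:106099797-106104082 on the plus strand. Myd88, the adaptor shared by all of these receptors but Tlr3, was not called in any comparison. Its level was 32.9 and 27.8 CPM in uninjured, 47.3 and 33.5 CPM in PT D1 and 33.9 and 37.1 CPM in PT D7 microglia, from 10 to 17 UMIs per library. The log2 fold changes of Myd88 were 0.53 ± 0.40, 0.45 ± 0.43 and -0.08 ± 0.41 in the 3 comparisons, with edgeR adjusted p-values of 0.486, 0.864 and 0.956. Myd88 overlaps Acaa1a and Cd180 overlaps Mast4 on the opposite strand. Use of strand in the counting is not stated in the sources used here, and without strand such reads could not be told apart.

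**Figure D2:**
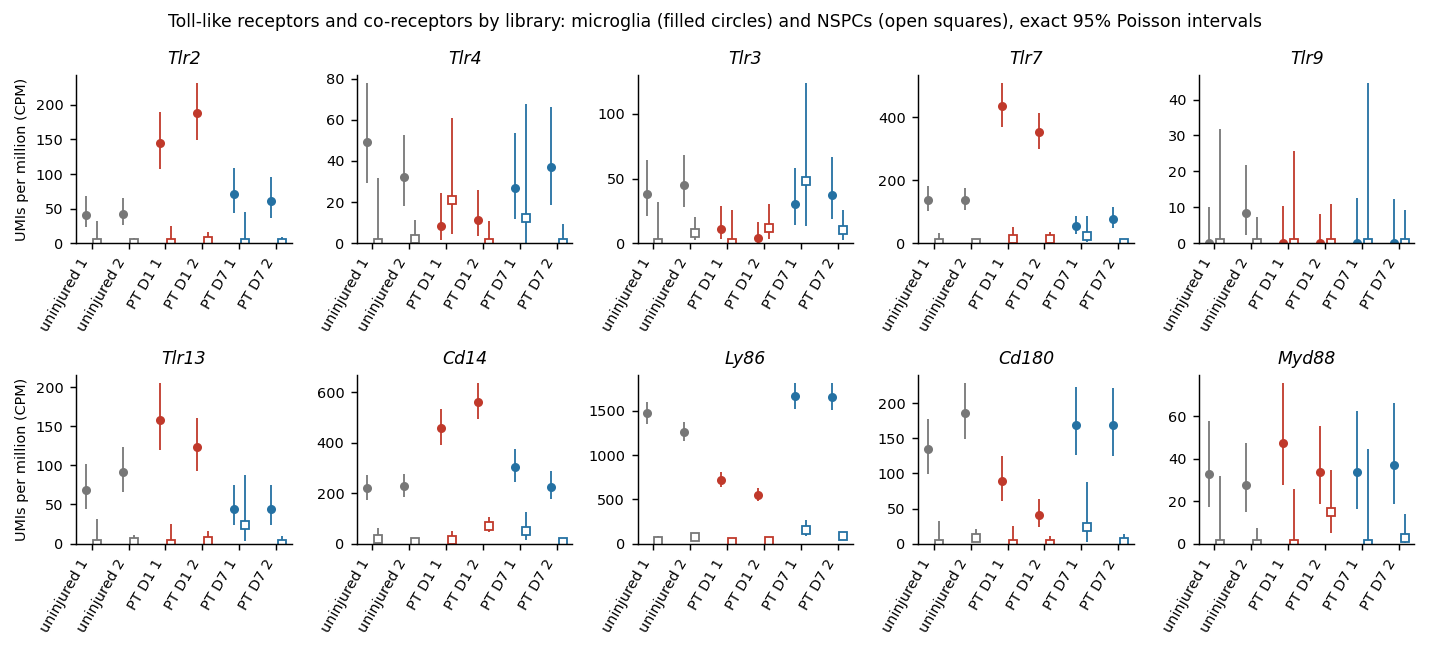
Level in CPM (y axis) of each gene in each library (x axis), in microglia as filled circles and in NSPCs as open squares, with exact 95% Poisson intervals that cover counting error only. In microglia Tlr2, Tlr7, Tlr13 and Cd14 are highest and Tlr3, Tlr4, Ly86 and Cd180 lowest in both PT D1 libraries, while the NSPC values of Tlr2 and Tlr7 stay near 0. Of these genes Tlr13, Tlr4, Ly86 and Cd180 were not called at PT D1 against uninjured. The share of all genes ordered in this way was not counted.

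The share of microglia with at least 1 UMI of Tlr7 or Tlr2 was highest in both PT D1 libraries. Tlr7 was found in 45.1% and 54.8% of uninjured, 80.3% and 73.7% of PT D1 and 25.9% and 31.7% of PT D7 microglia. The share of Tlr2 was 14.1% and 19.0%, 39.4% and 42.1%, and 27.8% and 18.3%, so that the shares of PT D7 and uninjured overlapped for Tlr2. Thinned to 1000 UMIs per cell, these shares were 14.9% and 14.0%, 35.3% and 29.4%, and 5.75% and 10.6% for Tlr7, and 5.32% and 4.06%, 12.1% and 13%, and 6.45% and 4.96% for Tlr2. Ly86 was found in 82.9% to 100% of the microglia of every library, while Tlr9 was found in 3 of 416. NSPCs, taken as background, had a higher median depth of 6449 UMIs against 4854.5. Their shares were 4.05% for Tlr7, 0.450% for Tlr2 and 34.2% for Ly86.

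The authors divided the microglia into 5 clusters, which they named homeostatic (cluster 0), activated (cluster 1), unknown (cluster 2), development-associated (cluster 3) and disease-associated (cluster 4). The clusters were drawn from the same genes, so the following levels are a description with no test. Cluster 1 held 64 and 40 cells of the PT D1 libraries and none of any other, whereas cluster 0 held 54 and 70 uninjured, 0 and 1 PT D1 and 18 and 32 PT D7 cells. Of the 41 cells of cluster 3, 35 came from PT D1 library 2. Cluster and condition can therefore not be told apart at PT D1. With cluster 3 left out, 4 members were called higher and 2 lower at PT D1, and 2 higher and 4 lower between PT D7 and PT D1. Of the 4274 genes of that fit, 194 were called higher and 211 lower at PT D1, and 127 and 154 between the PT conditions.

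Over all libraries, Tlr7 reached 457 CPM in cluster 1 and 250 CPM in cluster 3, against 137 CPM in cluster 0, 85.5 CPM in cluster 4 and 59.2 CPM in cluster 2. Its Poisson interval in cluster 1 was 402 to 517 CPM, which covers counting error only. The paper lists Tlr7 among the genes of cluster 1, so its high level there is no independent result. Tlr13 was likewise highest in cluster 1, at 166 CPM, but stood at only 72.1 CPM in cluster 3, close to the 79.8 CPM of cluster 0 and within its interval. Tlr2 was at 195 CPM in cluster 1, 123 CPM in cluster 4, 119 CPM in cluster 3, 41.7 CPM in cluster 0 and 20.7 CPM in cluster 2. The levels of Tlr2 in clusters 3 and 4 cannot be ordered by their intervals. Cd14 followed with 559 CPM in cluster 1, 454 CPM in cluster 3, 294 CPM in cluster 4, 248 CPM in cluster 0 and 172 CPM in cluster 2.

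Cluster 4 differed from cluster 1 in the co-receptor pair. Ly86 was highest there, at 2127 CPM, against 1504 CPM in cluster 0, 843 CPM in cluster 2, 721 CPM in cluster 1 and 424 CPM in cluster 3. Cd180 had the same order, with 238, 158, 115, 76.5 and 33.9 CPM. So cluster 4, mostly PT D7 cells, combined a Tlr2 level between those of clusters 0 and 1 with the highest Ly86 and Cd180 levels of the 5 clusters. By library, Tlr2 was at 148 and 107 CPM in cluster 4 and at 157 and 250 CPM in cluster 1. These Poisson intervals overlapped, so the order of Tlr2 between clusters 1 and 4 is uncertain. Tlr4 gave 0 UMIs in the 41 cells of cluster 3, which allows up to 12.7 CPM, and 14.6 CPM in cluster 1, while clusters 0, 2 and 4 lay between 26.0 and 42.9 CPM. Tlr3 stood at 7.28 CPM in cluster 1 and 4.24 CPM in cluster 3, against 46.5 CPM in cluster 0. Myd88 ranged from 14.8 CPM in cluster 2 to 46.6 CPM in cluster 3, with intervals that overlapped between all clusters.

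Clusters 0 and 2 held cells of both uninjured and PT D7 libraries, and cluster 0 held the most. Within cluster 0 Tlr7 was at 157 and 154 CPM in uninjured and 48.0 and 89.5 CPM in PT D7 libraries, from 44, 57, 3 and 11 UMIs. Tlr13 was at 78.7 and 97.2 CPM against 32.0 and 57.0 CPM. Tlr2 was at 46.5 and 37.8 CPM against 48.0 and 40.7 CPM, which overlap. In cluster 0, then, the PT D7 values of Tlr7 and Tlr13 were below both uninjured values and those of Tlr2 were not, although the Poisson intervals reached at least 1 uninjured level for Tlr7 in PT D7 library 2 and for Tlr13 in both PT D7 libraries. In cluster 2, where only uninjured library 1 held 10 or more cells, Tlr7 was at 76.3 CPM against 32.1 and 38.8 CPM in PT D7, and Tlr13 at 38.2 CPM against 64.3 and 25.9 CPM, from 2 to 8 UMIs each. In the PT D7 libraries, Tlr2 was at 148 and 107 CPM in cluster 4 beside the 48.0 and 40.7 CPM in cluster 0.

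**Figure D3:**
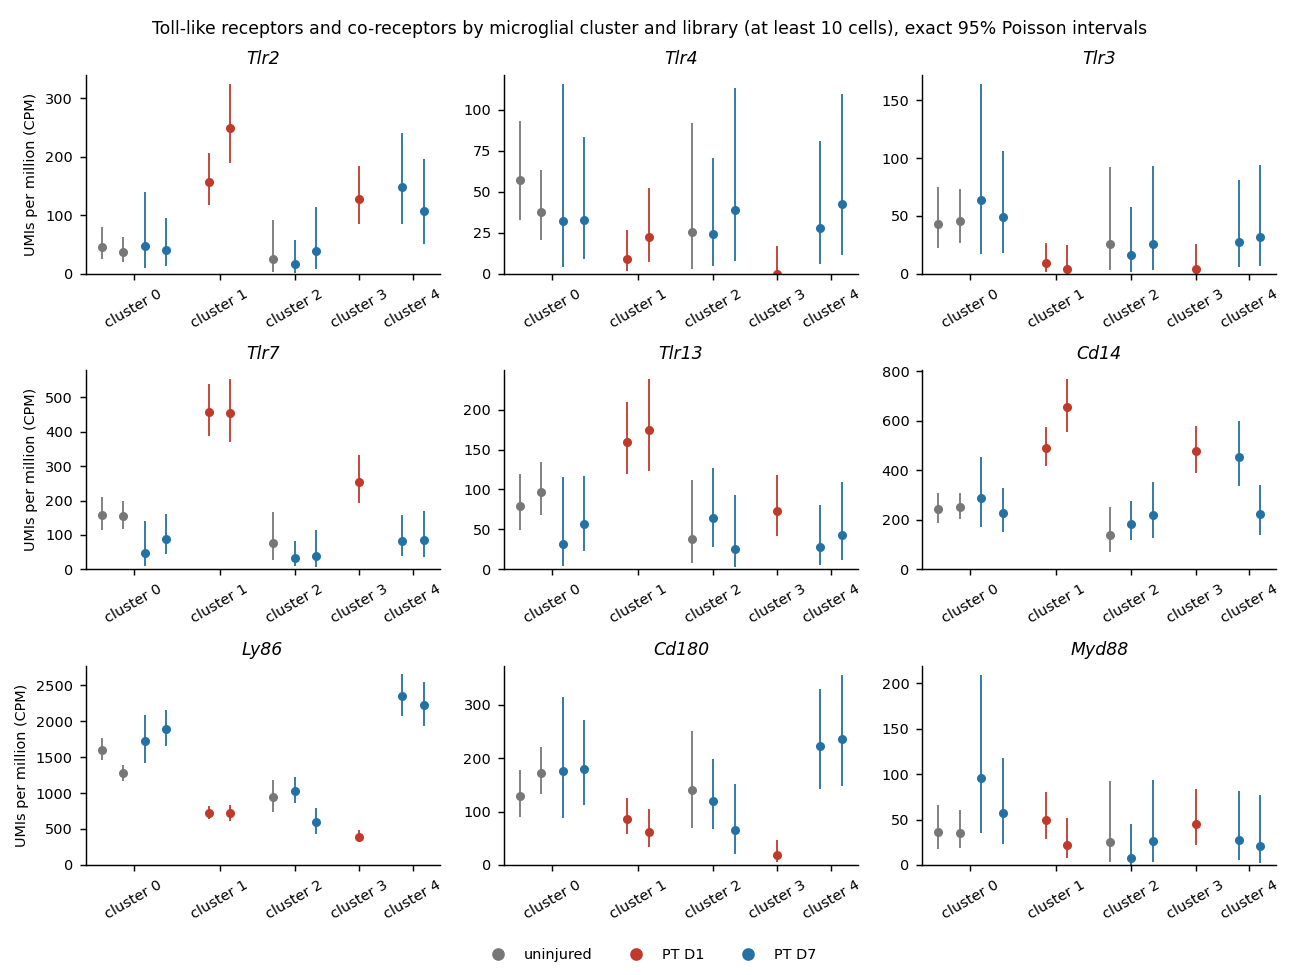
Level in CPM (y axis) of each gene by the authors' microglial cluster (x axis), with 1 point per library that held at least 10 cells of the cluster, coloured by condition, and exact 95% Poisson intervals. Tlr7 is highest in cluster 1, and Ly86 and Cd180 are highest in cluster 4, whose points come from PT D7.

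NSPCs served as background, since UMIs of microglial markers were counted in cells annotated as NSPCs. How these UMIs arose was not tested. The 8 microglial markers stood at 1.12% to 5.07% of their microglial level in NSPCs, with a median of 2.45%. Tlr2 (0.675%, 1 UMI) lay below this range, Tlr13 (2.75%), Tlr7 (3.03%) and Cd180 (3.47%) within it, and Ly86 (5.48%) and Cd14 (7.29%) above it. Myd88 (10.9%, 6 UMIs) and Tlr4 (11.8%, 5 UMIs) rested on few UMIs. Tlr3 was highest, at 37.2% of its microglial level. Of its 16 UMIs in NSPCs, 12 came from 11 of the 50 quiescent type B cells, the dormant stem cells, at 39.8 CPM (95% Poisson interval 20.6 to 69.6), beside 27.3 CPM over all microglia. The 8 microglial markers stood at 0% to 7.28% of their microglial level in these cells, with a median of 5.11%. These 11 cells came from 4 of the 6 libraries. The interval of 20.6 to 69.6 CPM includes the 27.3 CPM over all microglia, whose Tlr3 level was lowest at PT D1. In cluster 0 of the uninjured libraries Tlr3 stood at 42.9 and 45.9 CPM. Of the 13 quiescent type B cells without a UMI of any microglial marker, 3 held a Tlr3 UMI. In activated type B cells it gave 0 UMIs in 45 cells, which allows up to 7.21 CPM, and in type C cells and neuroblasts 5.06 and 4.35 CPM, from 2 UMIs each.

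In NSPCs only Cd14 and Ly86 passed the filter of edgeR, and neither was called in any comparison. Of the 4907 genes tested, 1.04% were called higher and 1.08% lower at PT D1. At PT D7 against uninjured these shares were 0% and 0.0815%, and between the PT conditions 0.224% and 0.408%. At PT D1 the unadjusted edgeR p was 0.0236 for Cd14 and 0.0130 for Ly86. Of all genes tested, 6.77% were higher and 7.99% lower with an unadjusted p under 0.05 there. Cd14 in NSPCs was at 17.2 and 8.04 CPM in uninjured, 13.9 and 71.1 CPM in PT D1 and 48.5 and 7.58 CPM in PT D7 libraries. The highest value, in PT D1 library 2, rests on 24 UMIs, and its Poisson interval (45.5 to 106) overlapped with that of PT D7 library 1 (13.2 to 124), which rests on 4. The log2 fold change at PT D1 was 2.2 ± 0.92 for Cd14 (adjusted p = 0.244, edgeR) and -1.38 ± 0.52 for Ly86 (adjusted p = 0.188, edgeR). The conditions overlapped for Cd14, whereas both PT D1 values of Ly86, 20.9 and 29.6 CPM, were below the other 4. The 8 microglial markers in NSPCs were lowest in the same libraries, with 181 and 237 CPM at PT D1 against 405 and 356 CPM in uninjured and 1297 and 298 CPM in PT D7 libraries, and their part in these values was not tested.

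**Figure D4:**
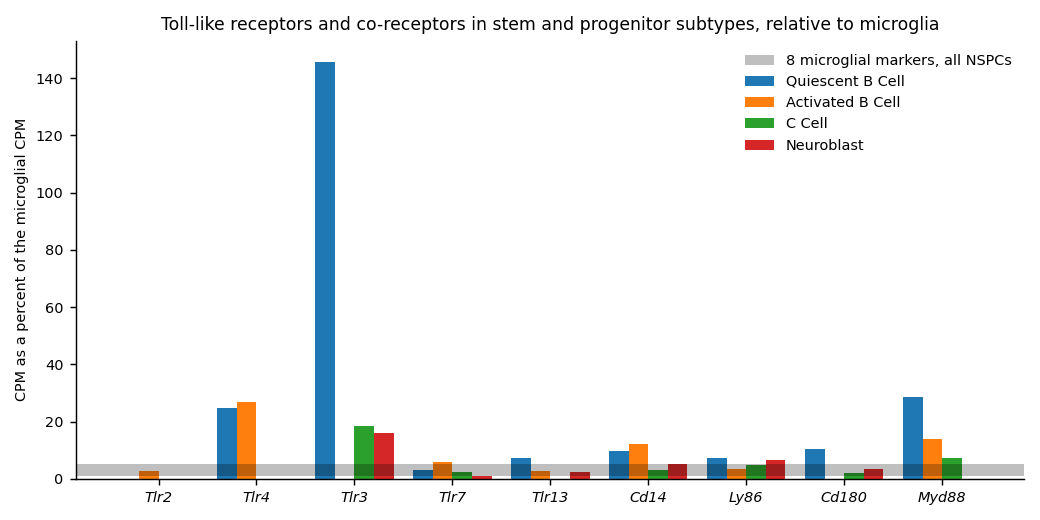
Level in each NSPC subtype as a percentage of the level in microglia (y axis) for the 9 genes with more than 4 microglial UMIs (x axis), with the range of the 8 microglial markers over all NSPCs as a grey band. Tlr3 in quiescent type B cells is above the band, at 146% of its level over the microglia of all conditions. That is 39.8 against 27.3 CPM, from 12 UMIs in quiescent type B cells. In quiescent type B cells alone the markers reached up to 7.28%.

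Genes with the most similar pattern to each member were sought over 12 sums of a cluster in a library, among 4125 genes with at least 60 UMIs. The correlations are of log2(CPM + 10) and are a description, because the sums share libraries, depth and cluster boundaries. Tlr2 was most like Tnf (r = 0.94) and Ctsl (0.93), and Cd14 most like Tnf (0.93) and Sqstm1 (0.90). Tlr7 was most like Klf13 (0.96) and C5ar1 (0.93), Tlr13 most like Runx1 (0.90) and Bmf (0.87), Tlr3 most like Hpgd (0.96) and Basp1 (0.95), Tlr4 most like Sec14l1 (0.90) and Calhm2 (0.89), and Myd88 most like Elf2 (0.93) and Jkamp (0.92). Ly86 and Cd180 were each other's closest gene (r = 0.93), followed by Mbnl1 for Ly86 and Epb41l2 for Cd180 (0.92 in both). Among the members, Tlr2 and Cd14 had an r of 0.90 and Tlr7 and Tlr13 one of 0.84, while Tlr3 and Tlr2 had one of -0.56.

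A list of 78 further genes of the pathway was chosen with earlier results of these data known. Its shares beside those of all genes are therefore a description and no test. Of these 78 genes 42 were tested. At PT D1 11 of them were called higher and 0 lower, with a median log2 fold change of 1.05, where 2.72% of all genes tested were called higher and 2.97% lower with a median of 0.04. By role, 6 of 10 tested target genes, 3 of 7 inhibitors and 2 of 7 genes of receptor trafficking and cleavage were called higher, and 0 of 8 adaptors and kinases, 0 of 9 transcription factors and 0 of 1 further receptor were called. With the replicate block 21 pathway genes were called, in the fit that called 639 of all 4846 genes. Fewer pathway genes, and fewer of all genes, were called without either uninjured library. The 8 largest were the chemokines Cxcl10 (4.87), Cxcl2 (4.10), Ccl4 (2.49) and Ccl3 (2.24), the cytokine Tnf (2.83), the cytokine signalling inhibitor Socs3 (2.89), the phosphatase Dusp1 (2.81) and the protease Ctsl (1.34), each given as a log2 fold change. Cxcl10 rested on 0 and 1 UMIs in uninjured and 10 and 24 in PT D1 libraries. Cxcl10 and Cxcl2 reached the filter on low counts only in the PT D1 libraries, so they were tested only because they were high there. Tnf, at 11.3 and 33.2 CPM with TMM scaling in uninjured, also passed it only with the PT D1 libraries. Ccl4, at 25.5 and 22.8 CPM with TMM scaling in uninjured, passed it only through PT libraries. With TMM scaling Cxcl2 was at 17.0 and 8.30 CPM in uninjured, 264 and 165 CPM in PT D1 and 12.5 and 14.8 CPM in PT D7 libraries. With at least 10 UMIs in every library 9 pathway genes were called, beside 90 higher and 114 lower of 2201 genes.

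At PT D7 only Ccl4 (4.02 ± 0.51, adjusted p = 0.00869, edgeR) and Ccl3 (2.81 ± 0.30, adjusted p = 0.00518, edgeR) were called against uninjured. Over all genes tested, 0.103% were called higher and 0.0619% lower. Ccl4 passed the filter on low counts only through PT libraries, so it was tested only because it was high there. With at least 10 UMIs in every library 1 pathway gene was called at PT D7 against uninjured, beside 3 higher and 1 lower of 2201 genes. Ccl3 stood at 49.4 and 57.7 CPM in uninjured, 239 and 228 CPM in PT D1 and 370 and 277 CPM in PT D7 microglia, and the difference between the PT conditions did not pass (adjusted p = 0.277, edgeR). Under the block 4 pathway genes were called at PT D7, beside 43 of all 4846 genes. From PT D1 to PT D7 7 pathway genes were called lower and 0 higher, where 2.1% of all genes tested were called lower and 1.69% higher. They were Socs3 (-3.01), Cxcl2 (-3.92), Dusp1 (-2.89), Tnf (-2.50), the transcription factor Fos (-2.26), the NF-kB inhibitor Nfkbia (-1.81) and Cxcl10, which was at 0 UMIs in both PT D7 libraries. Under the block 14 were called, beside 462 of all 4846 genes. Cxcl2, Cxcl10 and Tnf passed the filter on low counts only through the PT D1 libraries. With at least 10 UMIs in every library 4 pathway genes were called, beside 64 higher and 61 lower of 2201 genes. More pathway genes were called without PT D1 library 1 and fewer without either PT D7 library, and calls over all genes moved the same way. At PT D7 against uninjured the pathway calls were lost without either uninjured library. More were made without either PT D1 library and fewer without PT D7 library 1. Here too calls over all genes moved the same way.

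Among the partners of the members, Unc93b1, which carries the nucleic acid receptors to endosomes, was at 436 and 372 CPM in uninjured, 192 and 208 CPM in PT D1 and 359 and 324 CPM in PT D7 microglia. Both PT D1 libraries were lowest, but its log2 fold change of -0.89 ± 0.25 did not pass (adjusted p = 0.0633, edgeR). Tirap, the bridge from Tlr2 and Tlr4 to Myd88, differed by 0.61 ± 0.36 (adjusted p = 0.346, edgeR), and Tlr1, which pairs with Tlr2, by 1.34 ± 0.41 (adjusted p = 0.0777, edgeR). Ticam1, the adaptor of Tlr3, gave 12 UMIs in all microglia and Ticam2 10. Tlr6, the other partner of Tlr2, gave 52, and none of these 3 genes passed the filter. Tlr8 gave 0 UMIs.

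**Figure D5:**
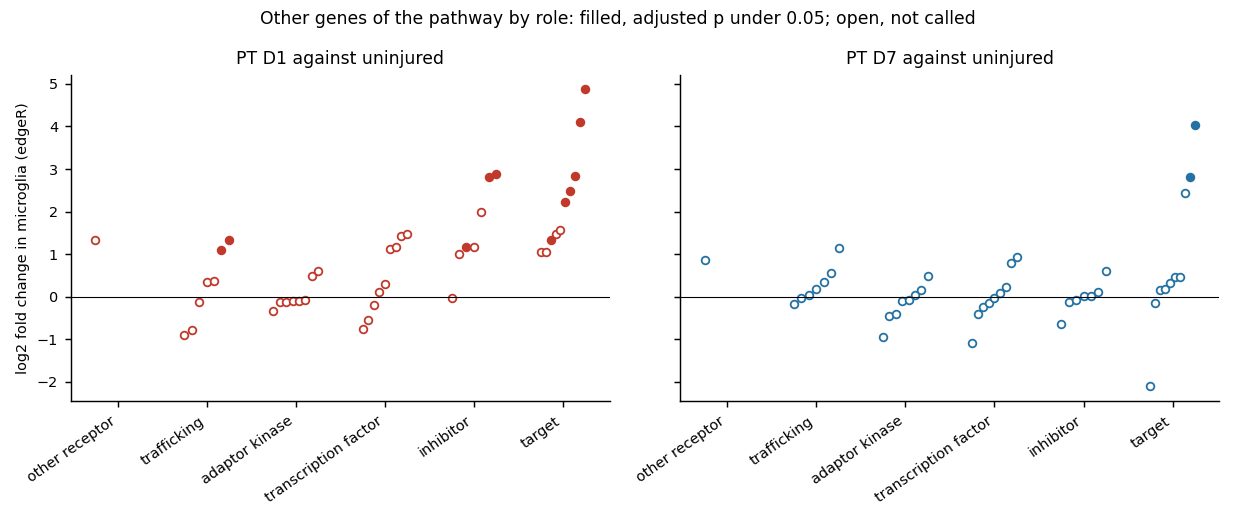
Log2 fold change (y axis) in microglia of the 42 pathway genes tested, grouped by role (x axis), at PT D1 and at PT D7 against uninjured. Filled points passed an adjusted p of 0.05. At PT D1 the 11 filled points are targets, inhibitors and trafficking genes, and at PT D7 the 2 filled points are the targets Ccl3 and Ccl4. The lowest target at PT D7 is Cxcl10, which was at 0 UMIs in both PT D7 libraries. Cxcl10, Cxcl2 and Tnf passed the filter on low counts only through the PT D1 libraries, and Ccl4 only through PT libraries.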

How the data were processed

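The authors sorted microglia and NSPCs of the SVZ into plates and prepared mCEL-Seq2 libraries of 192 cells. Reads were demultiplexed with bcl2fastq 2.17.1.14, by the submitters' processing notes, with GRCm39 as the genome build. Aligner, counter and use of strand: not given in the sources used here. Deposited values are whole UMI counts per gene and cell that the authors had filtered for cell quality but not normalized, together with a table of the class and cluster of each cell. Of that table, 15 columns were not used.

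UMIs of microglia and of NSPCs were summed per library (82504 to 497292 UMIs) and tested in edgeR 4.0.16 (TMM, filterByExpr, quasi-likelihood F-test, Benjamini-Hochberg adjustment). CPM are UMIs per 1000000 UMIs of the class or cluster without TMM scaling, with exact 95% Poisson intervals, and an upper limit of 3 counts was used where a count was 0. Both cover counting error only. Thinned shares are the expected shares at 1000 UMIs per cell. An exact permutation test of 2 libraries against 2 cannot reach p = 0.05, so shares were not tested. The 20 cells annotated as unknown or ependymal were left out, and doublets were not called here. Libraries of the same number deviated together in microglia (r = 0.21, 0.18 and 0.25) but not in NSPCs (0.08, -0.05 and -0.02), so values with the number as a replicate block are given beside microglial results whose call they change. The labels name no shared batch, and the PT D7 numbers come from the final digit of the cell-name start.

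The members and lists were chosen with earlier results of these data known. Named were the members, pathway genes called in a microglial comparison (up to 8 by absolute log2 fold change), 9 partner genes whatever their values, and for each member with at least 60 UMIs the 2 most correlated genes. Alternatives were DESeq2 1.42.0, other scaling and filters, the block, fits of a pair of conditions, leaving out single libraries, and selected or thinned cells. The edgeR test of PT D1 against uninjured was also run on counts simulated with the spread that edgeR had estimated. Such a run cannot show whether the spread between libraries was estimated well.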

Additional observations from a re-analysis of the deposited data

Results flagged for a closer look

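The effect of PT differed between the time points for 5 members, by the edgeR contrast of PT D7 against PT D1 in microglia. The log2 fold change at PT D7 minus that at PT D1 was -2.49 for Tlr7, -1.57 for Tlr13, -1.23 for Tlr2, 1.48 for Ly86 and 1.5 for Cd180. Tlr7 and Tlr13 were above uninjured at PT D1 and below it at PT D7 in every library, Ly86 was below and then above it in every library, and none of these 3 genes passed the test at PT D7 against uninjured. The 20 cells that the authors annotated as unknown or ependymal enter no other comparison. With only 4 of them from uninjured mice, and 0 or 1 UMI of each member there, differences could hardly be detected. Ly86 had the most UMIs, with 1 in the 4 uninjured, 5 in 8 PT D1 and 12 in 8 PT D7 cells, or 18.1, 75.8 and 184 CPM, and the Poisson intervals of uninjured (up to 101) and PT D7 (from 95) overlapped.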

How the results depend on the processing

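No called member changed direction under any of the 20 alternatives, and 0 members were called at PT D7 against uninjured under each. At PT D1 Tlr2 was called under 17 of 20 alternatives, Tlr7 and Cd14 under 18 of 20 and Tlr3 under 12 of 17. From PT D1 to PT D7 Tlr7 was called under 20 of 20, Ly86 under 19 of 20, Tlr13 under 12 of 19, Cd180 under 11 of 20 and Tlr2 under 7 of 20. Genes dropped by a filter or by DESeq2's own filter have fewer alternatives.

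At PT D1, 276 genes, 4 members and 11 pathway genes were called. With the replicate block these were 639, 8 and 21, with thinned cells 58, 2 and 5. DESeq2 called 101 genes, the fit with no filter 541 genes and 7 members, and the fit without cells rich in stem and progenitor markers 7 members. Leaving out 1 library gave 45 to 538 genes, 0 to 6 members and 3 to 16 pathway genes, with 0 members without either uninjured library.

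At PT D7 against uninjured, 8 genes and 2 pathway genes were called. With the replicate block these were 43 and 4, with no filter 35 and 4, with at least 10 UMIs in every library 4 and 1, with thinned cells 3 and 0, and without cells rich in stem and progenitor markers 4 and 0. With at most 10% mitochondrial UMIs 0 pathway genes were called, and 16 and 19 genes were called without clusters 2 and 3. Leaving out 1 library gave 0 to 38 genes and 0 to 4 pathway genes.

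Between PT D7 and PT D1, 184 genes, 5 members and 7 pathway genes were called. With the replicate block these were 462, 7 and 14, with thinned cells 27, 2 and 3. DESeq2 called 88 genes and 2 members, the fit of only these conditions 94 genes and 2 members, no filter 422 genes and 11 pathway genes, at least 10 UMIs in every library 4 pathway genes, and the fit without cluster 3 281 genes. Leaving out 1 library gave 46 to 418 genes, 1 to 7 members and 3 to 13 pathway genes, with 1 member without PT D7 library 1. Apart from the calls given with the results, the block changed no call of a member. Where a library left 1 sample in a condition, that sample was taken to vary like the others. The cause of these changes was not tested.

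Without TMM scaling the median log2 fold change moved to -0.09, -0.25 and -0.11 in the 3 comparisons, and the split of genes called higher and lower from 132 and 144 to 89 and 175 at PT D1, from 5 and 3 to 3 and 3 at PT D7, and from 82 and 102 to 59 and 111 between the PT conditions. Thinning lowered 53 of 60 shares of cells with a UMI by more than their intervals. Few UMIs limit Tlr3, Tlr4, Tlr9 and Myd88, with at most 21 per library.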
